A study of Arabidopsis thaliana x Arabidopsis lyrata and Arabidopsis thaliana x Arabidopsis halleri with 18 samples.

Results

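The 8 genes described here make or break down the plant hormone abscisic acid in *Arabidopsis*. They were chosen by name, for the enzymes they encode and with earlier results of these data known, and are 8 of the 16419 genes listed in the deposited tables. The synthesis genes are NCED3, ABA1, ABA2 and AAO3, and the breakdown genes are CYP707A1, CYP707A2, CYP707A3 and CYP707A4. Of the 8, 7 were listed under the first transcript of the gene, and CYP707A1 was listed only under another one, AT4G19230.2, whose row was used.

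Abscisic acid closes stomata and switches on protective genes when a leaf loses water. It is made from xanthophylls: ABA1 (zeaxanthin epoxidase) supplies the epoxidised xanthophylls, NCED3 cleaves them to xanthoxin in the committed step, ABA2 turns xanthoxin into abscisic aldehyde, and AAO3 oxidises the aldehyde to the hormone. The CYP707A cytochromes hydroxylate abscisic acid and so start its breakdown, which makes the pool of hormone depend on both arms.

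RNA was sequenced from F1 hybrids of *A. thaliana* Col-0 with a second parent, which the labels give as *A. lyrata* MN47 for 9 plants (ColxMN47) and as *A. halleri* for the other 9 (Colxhalleri). Both alleles of a gene sit in the same cells of an F1 plant, so their levels were read under shared conditions. All plants had 5 days of stratification at 4 °C. They grew on agar medium with sucrose at 22 °C under 16 h light and 8 h dark until 4 weeks old. The 6 groups held 3 plants each, with 1 plant per library. Standard plants were left in those conditions, cold plants spent 1 h at 4 °C in dim light, and dehydrated plants were taken off the agar and left in plastic dishes for 1 h at 22 °C in dim light. No standard plant was kept in dim light, so dim light and each treatment cannot be told apart. The labels describe the standard material as leaves and the extracted material as the whole aerial part, and the time of day is not given. The second allele was headed Aha_allele in the ColxMN47 files and Aly_allele in the Colxhalleri files, the opposite of the labels, so it is called the second allele here and the hybrids go by their labels.

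The deposited values were whole numbers scaled by the authors to totals between 1524104 and 1531268 per library, so the true depth is not known. In 5 of the 6 libraries of dehydrated plants and in no other, some low whole numbers never occurred, which shows that fewer reads had been scaled up. The thaliana allele held between 49.14% and 51.07% of the total in 17 libraries and 61.03% in ColxMN47 dehydration plant 2. Below, a level is the sum of both alleles on the deposited scale, after the 1 added to each allele was taken off and the libraries were rescaled (TMM). It is given in every plant in the order of the replicate numbers 1, 2 and 3. A change is a difference in log2(level + 2) from limma with its standard error (SE). It was called when the p adjusted by Benjamini-Hochberg over all 12941 genes tested was below 0.05. Of the 8 genes, 6 passed the filter for this test, and NCED3 did so only through the dehydrated plants, while CYP707A1 and CYP707A4 were too low.

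The promoter windows of 4 of the genes are shown because NCED3, ABA1 and CYP707A3 were called in the same dehydration comparison and because CYP707A1 shared a stretch with CYP707A3. Each holds the 300 bases before the annotated gene start in RefSeq's TAIR10.1, read on the gene's strand, and belongs to the thaliana reference; the second parents' promoters were not analysed here. Capitals mark matches to ACGTG, the core of abscisic acid response elements, which reads CACGT on the opposite strand. They also mark CACGTG, the G-box, which contains ACGTG on both strands. The windows are chr3:4834016-4834315 for NCED3, chr5:26757403-26757702 for ABA1, chr5:18371022-18371321 for CYP707A3, all on the minus strand, and chr4:10520959-10521258 on the plus strand for CYP707A1.
NCED3: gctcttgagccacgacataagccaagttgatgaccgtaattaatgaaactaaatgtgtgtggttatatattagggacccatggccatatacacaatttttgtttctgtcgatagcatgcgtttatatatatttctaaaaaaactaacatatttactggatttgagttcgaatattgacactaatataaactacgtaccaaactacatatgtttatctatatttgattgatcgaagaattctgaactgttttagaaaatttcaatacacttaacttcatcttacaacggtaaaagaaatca
ABA1: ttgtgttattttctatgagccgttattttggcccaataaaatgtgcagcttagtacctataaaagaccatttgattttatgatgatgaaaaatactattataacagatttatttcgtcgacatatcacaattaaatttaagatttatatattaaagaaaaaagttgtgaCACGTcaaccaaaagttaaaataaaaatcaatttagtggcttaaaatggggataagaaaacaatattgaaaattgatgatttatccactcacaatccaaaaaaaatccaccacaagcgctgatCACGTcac
CYP707A1: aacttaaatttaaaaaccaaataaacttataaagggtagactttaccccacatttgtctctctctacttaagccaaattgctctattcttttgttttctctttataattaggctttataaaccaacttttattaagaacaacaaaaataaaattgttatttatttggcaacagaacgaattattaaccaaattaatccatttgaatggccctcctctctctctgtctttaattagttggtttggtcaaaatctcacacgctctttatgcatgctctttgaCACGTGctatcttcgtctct
CYP707A3: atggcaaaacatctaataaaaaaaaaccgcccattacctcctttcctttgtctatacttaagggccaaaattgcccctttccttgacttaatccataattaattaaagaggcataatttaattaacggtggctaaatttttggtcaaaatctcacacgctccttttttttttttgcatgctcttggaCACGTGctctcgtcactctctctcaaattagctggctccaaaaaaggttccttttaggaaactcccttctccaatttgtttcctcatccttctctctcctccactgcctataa

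ABA1 held ACGTG at 131 to 127 and at 8 to 4 bases before its start, both on the opposite strand. CYP707A1 held the G-box at 20 to 15 bases and CYP707A3 at 113 to 108 bases before the start, and CYP707A4 held ACGTG at 128 to 124 bases. Among 27437 promoter windows of the same length, 25.6% held ACGTG and 7.09% held CACGTG on either strand. The search also covered CCGAC, the core of the dehydration response element that CBF and DREB factors bind, and AAAATATCT, the evening element of clock-controlled genes. CCGAC was found in ABA2 at 10 to 6 bases before the start and is in 13.9% of windows, while AAAATATCT was found in none of the 8 and is in 2.79% of windows. None of these letters was found in the windows of NCED3, AAO3 and CYP707A2. CYP707A1 and CYP707A3 shared an unbroken run of 23 bases, tttggtcaaaatctcacacgctc, which begins 61 and 162 bases before their starts. The run was in 0 other windows on either strand, and the next longest run shared by any of the 28 pairs of the 8 windows had 10 bases. It was noticed after the windows were read.

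NCED3 (AT3G14440.1) encodes the dioxygenase of the committed step and lies on chr3:4831286-4834015 (minus strand) as a single exon. Its level in ColxMN47 plants was 1.27, 2.80 and 0 under standard conditions, 7.03, 2.69 and 1.88 in the cold, and 279, 54.4 and 10.6 after dehydration. In Colxhalleri plants all 3 standard plants listed it at 0, cold plants at 0.884, 3.29 and 1.90, and dehydrated plants at 178, 144 and 95.1. All 6 dehydrated plants thus lay above all 12 others, while cold and standard plants of ColxMN47 overlapped. The dehydrated ColxMN47 plants were far more uneven than those of Colxhalleri, with plant 3 close to the highest cold plant. Over all genes tested, dehydrated plants lay above standard plants without overlap for 11.9% in ColxMN47 and 13% in Colxhalleri, and above cold plants for 9.82% and 10.4%.

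All calls of NCED3 come from a gene that passed the filter only through the dehydrated plants, since no other plant exceeded 7.03. NCED3 rose after dehydration in ColxMN47 by 4.21 ± 0.78 (SE) on the log2 scale, with a 95% interval from 2.58 to 5.84 and an adjusted p of 0.0279 (limma, 3 against 3 plants). It was 1 of 6 tested genes of the group called there, where 0.417% of all genes were called, and it ranked 11th from the highest of 12941 changes. The call was lost without dehydration plant 1 (adjusted p = 0.174), dehydration plant 2 (0.0798), standard plant 1 (0.0571) or standard plant 3 (0.0738), though the change stayed between 3.08 and 5.32 with each plant left out. It was also lost when only the compared groups were fitted (adjusted p = 0.226). Under the other alternatives the change fell as low as 2.685. The standard plants lay at 2.80 or below, so the size of the change depends on the 2 added before log2. In Colxhalleri no change is given against plants listed at 0, and the adjusted p of the rise was 0.000583. That call held under each of the 13 alternatives, with a highest adjusted p of 0.00629. The difference between the hybrids' dehydration changes had an interval from -0.42 to 4.18 and an adjusted p of 0.617. That difference uses the Colxhalleri change from plants listed at 0, so its size depends on the 2 added before log2. Dehydrated plants also lay above cold plants, which shared the dim light, by 5.13 ± 0.78 in Colxhalleri (adjusted p = 0.0142) and by 3.42 ± 0.78 in ColxMN47 (adjusted p = 0.149). The first of these was lost without cold plant 3, dehydration plant 1 or dehydration plant 2 (adjusted p of 0.0709, 0.0971 and 0.0995). Called genes made up 0.0618% of all genes in that contrast in Colxhalleri and 0.0232% in ColxMN47, where 0 of the 6 were called and 2 had an unadjusted p below 0.05.

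**Figure D1:**
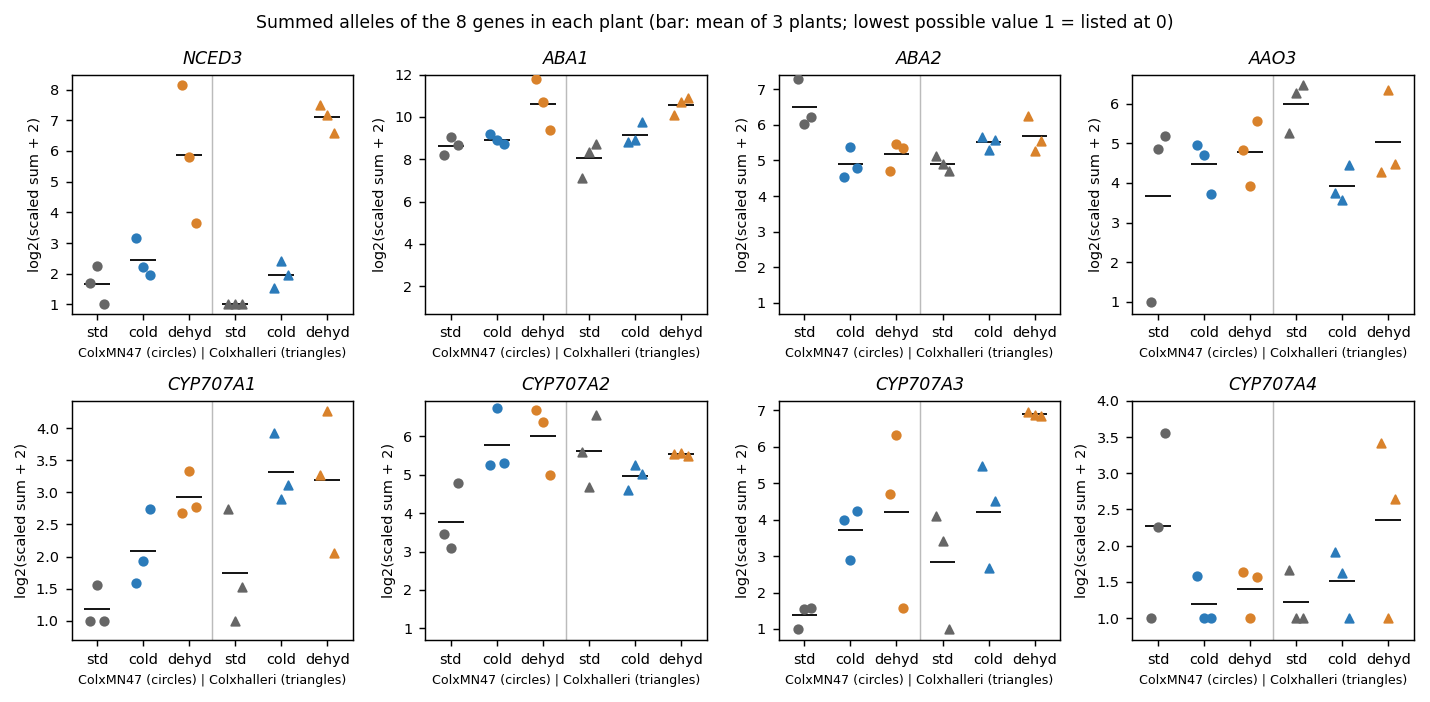
Level of each of the 8 genes as log2(scaled sum of both alleles + 2) on the vertical axis, in each plant (points) of the 6 groups on the horizontal axis, with bars at the mean of 3 plants; std is standard and dehyd dehydration. NCED3 was at or near its floor outside dehydration, and CYP707A3 was high and even in the 3 dehydrated Colxhalleri plants.

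ABA1 (AT5G67030.1), the epoxidase upstream of NCED3, lies on chr5:26753469-26757402 (minus strand, 16 exons). Its level in ColxMN47 was 288, 523 and 406 in standard plants, 576, 479 and 417 in cold plants and 3496, 1668 and 659 in dehydrated plants. In Colxhalleri it was 135, 317 and 418 in standard plants, 444, 485 and 874 in cold plants and 1079, 1664 and 1882 in dehydrated plants. The dehydrated plants lay above the standard plants in both hybrids, as for 11.9% and 13% of all genes, and above the cold plants, as for 9.82% and 10.4%, with ColxMN47 plant 3 again the lowest of its group. Against the cold plants, which shared the dim light, the change of ABA1 was 1.68 in ColxMN47 and 1.39 in Colxhalleri. Neither was called, also under the alternatives, where the lowest adjusted p was 0.100 and 0.248 (limma). ABA1 rose in Colxhalleri by 2.51 ± 0.57 (adjusted p = 0.0205), one of 3 genes of the group called among 6 tested, where 3.05% of all genes were called. That call was lost without standard plant 2, dehydration plant 2 or dehydration plant 3 (adjusted p of 0.0557, 0.0829 and 0.0787) and in a fit of only the compared groups (0.0603). In ColxMN47 the change was 1.99 ± 0.57 with an adjusted p of 0.0934, and without dehydration plant 3 it was 2.61 with an adjusted p of 0.0187. The difference between the hybrids' changes, 0.52 ± 0.80, was not called (adjusted p = 0.869).

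ABA2 (AT1G52340.1), the short-chain dehydrogenase that makes abscisic aldehyde, lies on chr1:19489794-19491650 (minus strand, 2 exons). Its level in ColxMN47 was 153, 63.4 and 72.6 in standard plants, 21.1, 39.4 and 25.3 in cold plants and 24.3, 42.3 and 38.4 in dehydrated plants. In Colxhalleri it was 32.6, 27.98 and 24.1 in standard plants, 48.6, 37.2 and 45.6 in cold plants and 74.1, 36.5 and 44.9 in dehydrated plants. Stressed plants thus lay below the standard plants in ColxMN47 and above them in Colxhalleri, with no overlap in any of these 4 comparisons. Such a pattern, with no overlap and opposite directions in the hybrids, was found in 0.626% of genes for cold and 0.873% for dehydration.

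None of these ABA2 differences was called. The changes were -1.62 ± 0.47 in the cold (adjusted p = 0.0985) and -1.33 ± 0.47 after dehydration (adjusted p = 0.147) in ColxMN47. In Colxhalleri they were 0.60 ± 0.47 (adjusted p = 0.615) and 0.78 ± 0.47 (adjusted p = 0.378). The cold and dehydration changes of a hybrid share its standard plants. The difference between the hybrids was 2.22 ± 0.66 for cold (adjusted p = 0.411) and 2.11 ± 0.66 for dehydration (adjusted p = 0.323). Called genes made up 0.0155% of all genes for the cold difference and 0% for the dehydration difference, where 1257 genes had an unadjusted p below 0.05. The annotated gene overlaps AT1G52330 on the opposite strand by 121 bases and a long noncoding RNA, AT1G07803, by 349 bases. The library kit does not mark strand, so reads from the shared bases cannot be told apart, and AT1G52330 itself was listed at 1 to 5 for the thaliana allele and 1 to 10 for the second allele.

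AAO3 (AT2G27150.1), the aldehyde oxidase of the last step, lies on chr2:11601727-11608450 (plus strand, 10 exons). In ColxMN47 its level was 0, 27.0 and 34.3 in standard plants, 29.1, 24.2 and 11.3 in cold plants and 26.5, 13.1 and 45.2 in dehydrated plants, so all groups overlapped. In Colxhalleri it was 36.0, 75.2 and 86.2 in standard plants, 11.5, 9.86 and 19.96 in cold plants and 17.4, 79.0 and 20.3 in dehydrated plants. The cold Colxhalleri plants lay below all standard ones, which held for 7.57% of genes, and dehydration plant 2 was as high as the standard plants. The cold difference was -2.07 ± 0.85 and was not called (adjusted p = 0.266). AAO3 overlaps AT2G27160 on the opposite strand by 985 bases, whose reads cannot be told apart from its own.

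CYP707A3 (AT5G45340.1), a main abscisic acid hydroxylase of leaves, lies on chr5:18368532-18371021 (minus strand, 6 exons). Its level in ColxMN47 was 0, 0.933 and 0.981 in standard plants, 14.1, 5.37 and 16.9 in cold plants and 24.3, 78.6 and 0.961 in dehydrated plants. In Colxhalleri it was 15.1, 8.74 and 0 in standard plants, 42.4, 4.38 and 20.9 in cold plants and 123, 115 and 112 in dehydrated plants. The dehydrated Colxhalleri plants were nearly equal and lay above every other plant of the series, whereas dehydrated ColxMN47 plant 3 was at the level of standard plants. Within Colxhalleri, dehydrated plants lay above standard plants without overlap for 13% of all genes and above cold plants for 10.4%. Against the cold plants, which shared the dim light, the change of CYP707A3 was 2.67 in Colxhalleri and 0.50 in ColxMN47. Neither was called, also under the alternatives, where the lowest adjusted p was 0.0853 and 0.492 (limma). CYP707A3 rose in Colxhalleri by 4.05 ± 0.96 (adjusted p = 0.0252), where 3.05% of all genes were called, and in ColxMN47 the change was 2.83 ± 0.96 (adjusted p = 0.137). Without ColxMN47 dehydration plant 3 the latter was 4.15 with an adjusted p of 0.0150. The Colxhalleri call was lost without dehydration plant 1, 2 or 3 (adjusted p of 0.0801, 0.0881 and 0.0738) and without standard plant 2 or 3 (0.0592 and 0.143). The difference between the hybrids' changes was 1.22 ± 1.36 (adjusted p = 0.806).

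CYP707A2 (AT2G29090.1), the hydroxylase best known from imbibed seeds, lies on chr2:12494826-12499723 (minus strand, 9 exons). In ColxMN47 its level was 8.91, 6.53 and 25.5 in standard plants, 36.2, 105 and 37.6 in cold plants and 102, 80.6 and 29.8 in dehydrated plants. In Colxhalleri it was 46.5, 23.6 and 91.4 in standard plants, 22.1, 36.1 and 30.4 in cold plants and 44.7, 45.6 and 42.7 in dehydrated plants. Both stresses thus lay above standard in ColxMN47, without overlap, and overlapped standard in Colxhalleri. Plants did not overlap and were higher for 12.8% of genes in the cold and for 11.9% after dehydration in ColxMN47. The ColxMN47 changes were 1.99 ± 0.61 in the cold (adjusted p = 0.120) and 2.24 ± 0.61 after dehydration (adjusted p = 0.0829), neither of them called. Without dehydration plant 3 the latter was 2.76 with an adjusted p of 0.0264. The difference between the hybrids was -2.65 ± 0.86 for cold (adjusted p = 0.424) and -2.32 ± 0.86 for dehydration (adjusted p = 0.393).

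CYP707A1 and CYP707A4 did not reach a level of 10 in 3 libraries and were not tested. CYP707A1 (chr4:10521259-10523961, plus strand, 7 exons), the sister hydroxylase of CYP707A3, was at 0, 0.933 and 0 in standard ColxMN47 plants, 1.00, 1.79 and 4.69 in cold ones and 4.42, 8.06 and 4.81 in dehydrated ones. In Colxhalleri it was at 4.65, 0 and 0.862 in standard plants, 13.3, 5.48 and 6.65 in cold plants and 7.62, 17.2 and 2.14 in dehydrated plants. Its 2 values above 10 were in 1 cold and 1 dehydrated Colxhalleri plant, and its stressed plants overlapped the standard ones for dehydration in Colxhalleri and in no other comparison. These levels were near the floor, with 1.00 in a cold against 0.933 in a standard ColxMN47 plant. Among tested genes, stressed plants were higher without overlap for 12.8% in the cold and 11.9% after dehydration in ColxMN47, and for 9.41% in cold Colxhalleri plants. CYP707A4 (AT3G19270.1, chr3:6673689-6676521, minus strand, 8 exons) lay between 0 and 9.81 in all 18 plants, with its highest value in a standard plant.

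**Figure D2:**
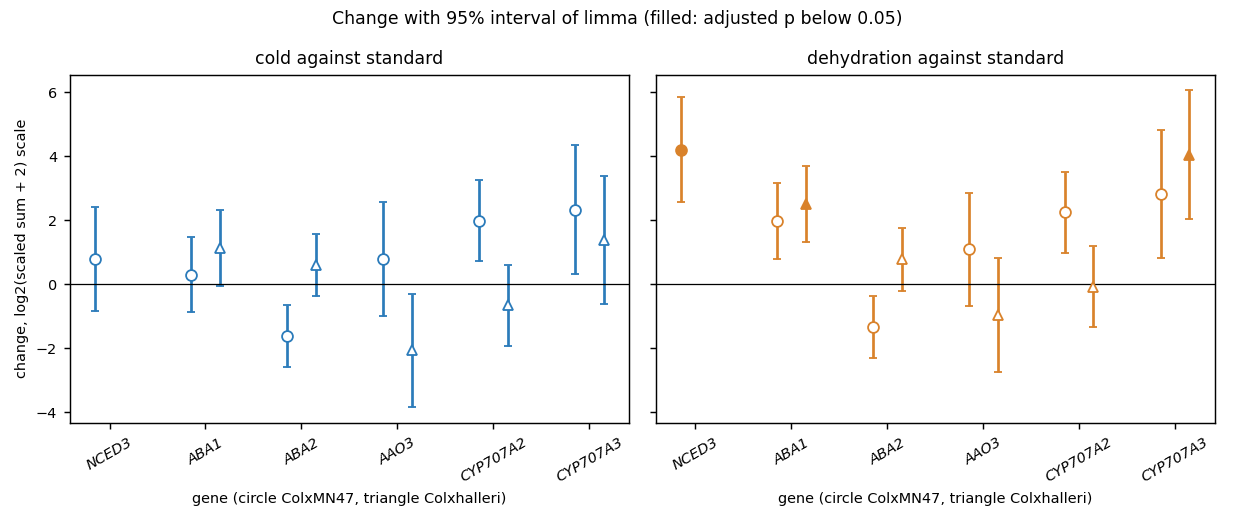
Change of the 6 tested genes on the log2(scaled sum + 2) scale (vertical axis) with the 95% interval of limma, for cold and for dehydration against the standard plants, with 3 plants in each group; filled points were called. NCED3 in Colxhalleri is not drawn because all of its standard plants were at 0, and ABA2 lay below 0 in ColxMN47 and above 0 in Colxhalleri for both stresses, with none of these called.

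None of the 6 tested genes was called in the cold in either hybrid, where 0.912% of all genes were called in ColxMN47 and 0.757% in Colxhalleri. An unadjusted p below 0.05 was reached by 3 of them in ColxMN47 (ABA2, CYP707A2 and CYP707A3) and by AAO3 in Colxhalleri (limma). The summed level of 4 leaf markers (RBCS1A, RCA, CA1 and GAPA, genes of carbon fixation) ranged from 31720 to 82710 in standard and from 10440 to 22430 in cold ColxMN47 plants, and from 62560 to 70000 in standard and from 17730 to 25460 in cold Colxhalleri plants. After dehydration it was 34640 to 51840 in ColxMN47 and 48370 to 61750 in Colxhalleri. The 4 did not move together: in the cold 2 had a change above 0 in ColxMN47 and 1 in Colxhalleri, and none was called. The mean level of RBCS1A was 33960 in standard and 4922 in cold ColxMN47 plants, and 43000 and 6363 in Colxhalleri, and that of RCA was 16550 and 4963, and 16340 and 6342. By contrast, the mean level of CA1 was 1259 in standard and 3669 in cold Colxhalleri plants, and that of GAPA was 4456 in standard and 4568 in cold ColxMN47 plants. The 3 guard cell markers summed to 78.9 to 118 in standard, 55.4 to 88.7 in cold and 48.4 to 78.8 in dehydrated ColxMN47 plants, and to 89.5 to 155, 42.8 to 92.0 and 76.9 to 122 in Colxhalleri. The 2 phloem and vascular markers summed to 146 to 359, 129 to 670 and 195 to 283 in the same order in ColxMN47. In Colxhalleri they summed to 70.0 to 184 in standard, 271 to 448 in cold and 119 to 338 in dehydrated plants, so the cold plants lay above the standard ones. Among all tested genes, cold Colxhalleri plants lay above standard ones without overlap for 9.41%. The 6 root markers summed to at most 2.55 in standard and 6.27 in cold ColxMN47 plants and to 6.62 to 47.1 in dehydrated ones. In Colxhalleri they were all at 0 in standard plants and reached at most 70.7 in the cold and 13.2 after dehydration. Of 3 flower markers, SEP3 was called lower in dehydrated Colxhalleri plants by -2.96 ± 0.65 (limma, adjusted p = 0.0170). That comparison called 3.05% of all genes. All 3 summed to 1.09 to 2.14 in these plants against 18.6 to 36.7 in standard Colxhalleri plants. SEP3 would not have passed the filter without those standard plants, the reference of the test. Its level was 9.30 to 30.6 in them and at most 11.4 in any other group. The part of these marker levels in the results was not tested, and in whole shoots fewer cells of a type and less RNA per cell cannot be told apart.

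Under standard conditions none of the 6 genes was called between the hybrids, where 1.79% of all genes were called. ABA2 was lower in Colxhalleri than in ColxMN47 without overlap (-1.60 ± 0.47, adjusted p = 0.0838), and AAO3 was higher without overlap (2.31 ± 0.85, adjusted p = 0.162), each of which held for 9.03% of genes. Without ColxMN47 standard plant 1, where AAO3 was listed at 0, its difference was 0.97 (adjusted p = 0.623). CYP707A2 was at 1.83 ± 0.61 (adjusted p = 0.121), with overlapping plants. These 3 had an unadjusted p below 0.05, and NCED3, ABA1 and CYP707A3 did not.

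The alleles of CYP707A2 differed most among the 6 tested genes in both hybrids. The thaliana and second allele, as deposited with 1 as the lowest possible value, stood at 1 and 8, 3 and 6, and 1 and 27 in the standard ColxMN47 plants. They stood at 9 and 29, 11 and 108, and 8 and 34 in the cold and at 8 and 86, 11 and 71, and 5 and 28 after dehydration. In Colxhalleri the pairs were 3 and 39, 1 and 28, and 6 and 102 in standard plants, 4 and 23, 5 and 30, and 9 and 25 in cold plants, and 8 and 35, 4 and 43, and 5 and 37 in dehydrated plants. The second allele was thus the higher one in every plant of both hybrids, which held for 8.98% of genes in ColxMN47 and 16.4% in Colxhalleri. The mean log2 ratio of the second over the thaliana allele was 2.71 ± 0.36 in ColxMN47 (adjusted p = 0.000265, 9 plants) and 3.07 ± 0.22 in Colxhalleri (adjusted p = 1.2e-05), 110th and 90th from the highest of 11697 and 11655 genes. In Colxhalleri its ratio changed by -2.00 ± 0.53 in the cold (adjusted p = 0.104) and by -1.38 ± 0.53 after dehydration (adjusted p = 0.185), neither of them called. Both were without overlap, which held for 12.8% and 12.4% of genes. No source used here says how reads were given to an allele.

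**Figure D3:**
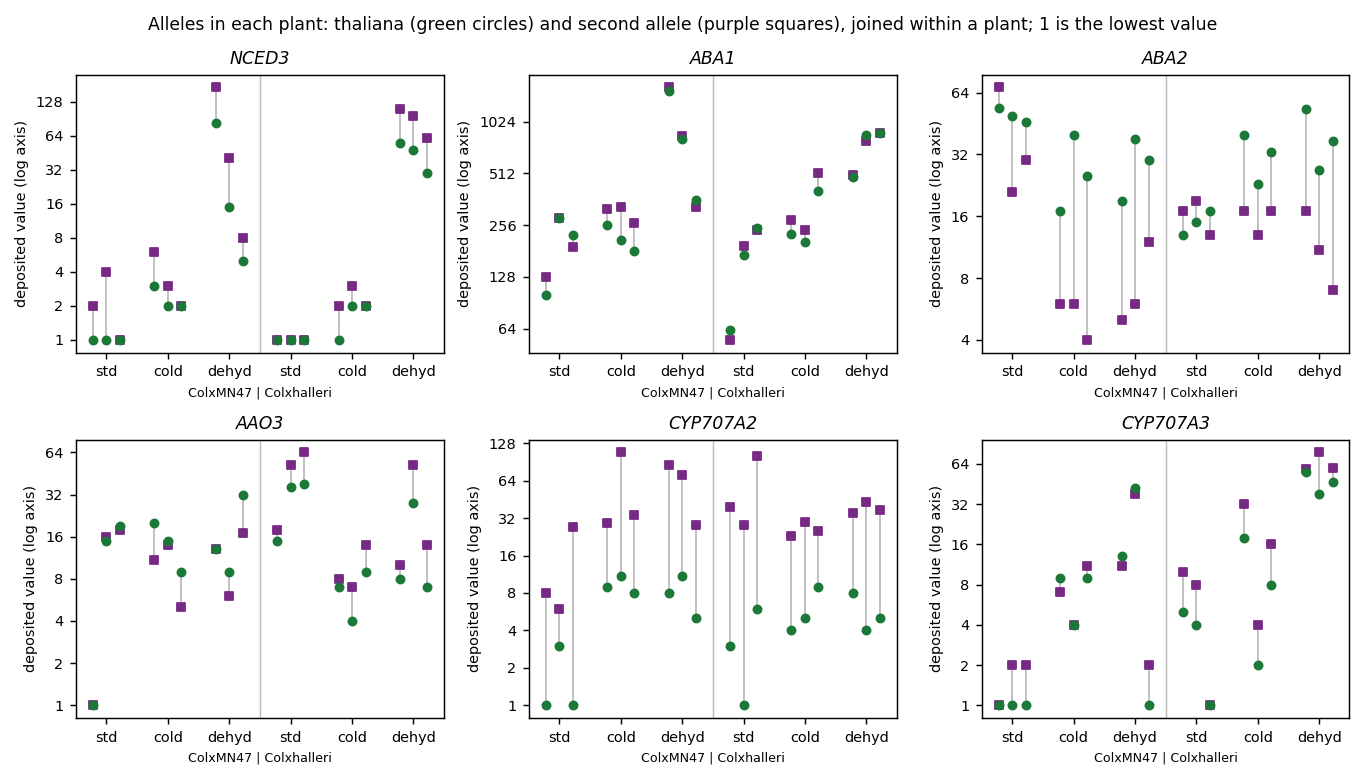
Deposited value of the thaliana allele (green circles) and the second allele (purple squares) of 6 genes in each plant on a log axis, joined by a line within a plant, for the 6 groups on the horizontal axis. The second allele of CYP707A2 lay above the thaliana allele in all 18 plants, and that of ABA2 lay below it in every cold and dehydrated plant.

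Allele ratios differed from equal in 4 of 6 tested genes in ColxMN47 and in 5 of 6 in Colxhalleri. This was not unusual, since 47.8% and 60.4% of all genes tested were called in the same way. Both counts include NCED3, which passed the filter for allele ratios only through the dehydrated plants. For NCED3 the thaliana and second allele stood at 83 and 172, 15 and 41, and 5 and 8 in dehydrated ColxMN47 plants, and at 55 and 110, 48 and 96, and 30 and 61 in dehydrated Colxhalleri plants. The second allele was the higher in all 6 dehydrated plants, at close to the same ratio in the 3 of Colxhalleri. Over the 9 plants of a hybrid, most of them near 1 for both alleles, the mean log2 ratio of NCED3 was 0.86 ± 0.21 in ColxMN47 (adjusted p = 0.00634) and 0.51 ± 0.10 in Colxhalleri (adjusted p = 0.00223). All 3 standard Colxhalleri plants had both alleles at 1, so their ratio was fixed by the 1 added to each allele. The Colxhalleri mean, SE and adjusted p rest partly on these fixed ratios and are not evidence from 9 plants. In the dehydrated plants alone, an alternative chosen after the data were seen, the mean log2 ratio of NCED3 was 1.06 ± 0.36 (adjusted p = 0.0580) and 1.01 ± 0.18 (adjusted p = 0.00356).

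ABA1 showed no called allele difference, with mean log2 ratios of 0.18 (interval -0.06 to 0.42) in ColxMN47 and 0.08 (interval -0.08 to 0.24) in Colxhalleri. In its dehydrated Colxhalleri plants the thaliana and second allele stood at 490 and 503, 855 and 790, and 885 and 878, so both alleles carried the rise in level. In the dehydrated ColxMN47 plants they stood at 1545 and 1624, 813 and 844, and 360 and 328. CYP707A3 had 56 and 59, 38 and 78, and 47 and 60 in dehydrated Colxhalleri plants. Its second allele was the higher in 8 of 9 Colxhalleri plants and equal in the other, with a mean log2 ratio of 0.70 ± 0.14 (adjusted p = 0.00204). In the dehydrated plants alone it was 0.49 with an adjusted p of 0.146, and the call was lost. In ColxMN47 its second allele was higher in 4 plants and lower in 3, with a mean log2 ratio of 0.28 ± 0.17 (adjusted p = 0.189).

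ABA2 was the gene of the group with a called change in allele balance. In ColxMN47 the thaliana and second allele stood at 54 and 68, 49 and 21, and 46 and 30 in standard plants, at 17 and 6, 40 and 6, and 25 and 4 in cold plants, and at 19 and 5, 38 and 6, and 30 and 12 in dehydrated plants. In Colxhalleri they stood at 13 and 17, 15 and 19, and 17 and 13 in standard plants, at 40 and 17, 23 and 13, and 33 and 17 in cold plants, and at 53 and 17, 27 and 11, and 37 and 7 in dehydrated plants. In ColxMN47 both alleles lay below their standard values in every stressed plant. In Colxhalleri the thaliana allele lay above its standard values in every stressed plant, while the second allele overlapped its own. The share of all genes with such a pattern in a single allele was not computed. The mean log2 ratio over 9 plants was -1.59 ± 0.23 in ColxMN47 (adjusted p = 0.000445) and -0.89 ± 0.14 in Colxhalleri (adjusted p = 0.000500).

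The log2 allele ratio of ABA2 fell by 1.89 ± 0.34 after dehydration in Colxhalleri (adjusted p = 0.0340), the single gene of the 6 called in a comparison that called 2.05% of all genes, and 96th from the lowest of 11655. The call was lost without standard plant 2 or dehydration plant 1, 2 or 3, with adjusted p of 0.0749, 0.0732, 0.0547 and 0.0752. The other ABA2 ratio changes were -1.12 ± 0.34 for cold in Colxhalleri (adjusted p = 0.145), -1.79 ± 0.57 for cold in ColxMN47 (adjusted p = 0.305) and -1.47 ± 0.57 for dehydration in ColxMN47 (adjusted p = 0.310). The last was -0.70 without the 3 libraries that stood apart in earlier results (ColxMN47 standard 1 and dehydration 2, Colxhalleri cold 1), and the median ratio change of all genes in that comparison was -0.24. In each, the stressed plants lay below the standard plants without overlap, which held for 12.8%, 12.7% and 13.3% of genes. Called genes made up 0.978% for cold in Colxhalleri and 0% for both stresses in ColxMN47, where 1145 genes had an unadjusted p below 0.05 for cold and 1565 for dehydration (limma). For NCED3 the ratio change after dehydration in Colxhalleri was 1.01 ± 0.26 and was not called (adjusted p = 0.0774). All 3 standard plants had both alleles at 1, so their ratio was fixed by the 1 added to each allele. The value is thus the mean ratio of the dehydrated plants and cannot show a shift in balance.

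The alleles of AAO3 leaned in opposite directions in the hybrids. In Colxhalleri the second allele was the higher in all 9 plants, which held for 16.4% of genes. It stood at 52 and 64 against 36 and 38 for the thaliana allele in standard plants 2 and 3, and at 8 and 7 against 7 and 4 in cold plants 1 and 2. In ColxMN47 the thaliana allele was the higher in 6 plants, the second allele in 1, and they were equal in 2. The mean log2 ratio was 0.60 ± 0.11 in Colxhalleri (adjusted p = 0.00127), where 60.4% of all genes were called. It was -0.37 ± 0.13 in ColxMN47 (adjusted p = 0.0410), where 47.8% were called. The ColxMN47 call was lost under 12 of 15 alternatives, with adjusted p up to 0.139. The difference between the hybrids was 0.97 ± 0.17 (adjusted p = 0.000500), the only one called among the 6 genes, where 30.7% of all genes were called. ABA2 followed with 0.70 ± 0.27 (adjusted p = 0.0625).

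Other genes of the abscisic acid pathway came from 7 lists, chosen with earlier results of these data known, of 56 genes of which 52 were in the files and 45 were tested. None of the 45 was called in ColxMN47 in the cold (0.912% of all genes) or after dehydration (0.417%), or in Colxhalleri in the cold (0.757%) (limma). After dehydration in Colxhalleri 5 were called, against 3.05% of all genes. Of these, 3 were among the 9 tested abscisic acid response genes: PP2CA, a phosphatase that restrains the signal, rose by 2.86 ± 0.58 (adjusted p = 0.0113), RAB18, a dehydrin, by 4.59 ± 1.02 (adjusted p = 0.0188), and RD29B by 2.55 ± 0.65 (adjusted p = 0.0367). DTX50, a transporter that exports abscisic acid, rose by 3.83 ± 0.86 (adjusted p = 0.0197). DTX50 and RD29B passed the filter only through the dehydrated plants, with highest levels of 4.90 and 15.9 in the others. WRKY57, a factor reported to act on NCED3, was the one that fell, by 2.79 ± 0.57 (adjusted p = 0.0122), from a level of 105 ± 41.4 to 12.7 ± 1.56 (mean ± SD, n = 3). In ColxMN47, where NCED3 also rose, the level of WRKY57 was 25.7 ± 10.55 in standard and 21.5 ± 11.99 in dehydrated plants. A link between WRKY57 and NCED3 was not tested.

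The 9 response genes had a median change of 2.45 in Colxhalleri, with 8 above 0 (HAI2 among them, at 0 in all standard plants), and of 1.10 in ColxMN47, with 9 above 0. The median over all genes was 0.07 and 0.08. In ColxMN47 the closest to a call were PP2CA at 2.52 ± 0.58 (adjusted p = 0.0577) and RD29B at 2.25 ± 0.65 (adjusted p = 0.0976). The 11 tested genes of the carotenoid and xanthophyll list had medians of 0.66 in Colxhalleri and 0.26 in ColxMN47 with none called. The 11 tested receptors and kinases had medians of -0.07 and -0.46 with none called, and PYL5 and PYL4, abscisic acid receptors, stood at -3.40 ± 1.00 (adjusted p = 0.103) and -3.31 ± 1.02 (adjusted p = 0.111) in ColxMN47. In cold Colxhalleri plants WRKY57 at -2.43 ± 0.57 (adjusted p = 0.0517), the carotene hydroxylase BCH1 at 2.71 ± 0.65 (adjusted p = 0.0524), the receptor PYR1 at 2.31 ± 0.56 (adjusted p = 0.0567) and RAB18 at 4.06 ± 1.02 (adjusted p = 0.0613) were closest to a call.

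**Figure D4:**
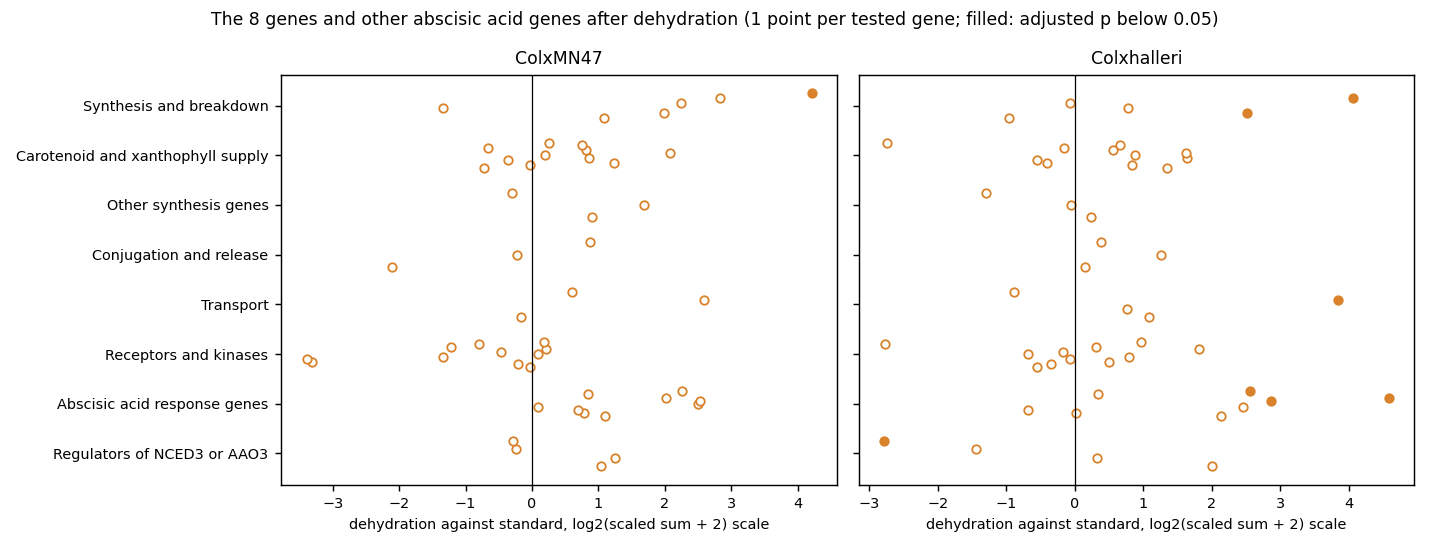
Change after dehydration on the log2(scaled sum + 2) scale (horizontal axis) of each tested gene of the group and of the 7 pathway lists (rows) in both hybrids; filled points were called, and genes listed at 0 in all standard plants are not drawn. In Colxhalleri the called points lie among the synthesis and breakdown genes, the response genes and transport on the right, and WRKY57 on the left.

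The genes whose level was most like that of NCED3 over the 18 libraries, among 5538 genes with a mean of at least 50, were AT2G30020 (Pearson's r 0.923), the ERF-family factor ORA47 (0.918), DIP2 (0.911), PP2CA (0.898) and the heat shock factor HSFB2A (0.895). After the group means were taken off, these values were 0.673, 0.785, 0.643, 0.666 and 0.530. For CYP707A3 they were AT1G74450 (0.875), the mitochondrial carrier UCP5 (0.858), FBS1 (0.857), ORG4 (0.849) and AT5G25210 (0.845), with 0.796, 0.681, 0.644, 0.594 and 0.631 after the group means were taken off. These values describe the same 18 libraries, whose points share treatment and scaling. NCED3 and CYP707A3 were the synthesis and the breakdown gene with the smallest p after a treatment.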

How the data were processed

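Each library held RNA of 1 plant's aerial part and used the TruSeq v2 kit, according to the labels. The authors deposited a score per gene and allele, a whole number that is, from its values, a read number scaled to a near-equal total with 1 added. TopHat2, SAMtools, DESeq2 and TAIR10 are named without roles, per the submitters' processing notes. The step that gave reads to an allele is not described in the sources used here. The depth is unknown, so no counting interval was computed.

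Genes that reached a level of 10 in 3 or more libraries were tested with limma 3.58.1 in R 4.3.3 (eBayes, trend and robust, 1 fit of all 18 libraries, 1 mean per group, 2 added before log2). TMM factors (30% and 5% trims, own code) ranged from 0.785 to 1.16. Allele ratios were tested on the deposited values, for genes with a mean summed value of at least 10 per plant, within a hybrid, or over both for their difference. P values were 2-sided. The 1 kept on each allele pulls ratios of low genes toward equal. Within-group correlations ranged from 0.700 to 0.846. Of the 16419 genes, 16404 were matched to TAIR10.1, which gave symbols, coordinates and promoter windows.

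The 8 genes, the lists and the markers were chosen with earlier results of these data known. Besides all 8, the text names genes of the lists that were called in a treatment comparison or had 1 of the 3 smallest p in their list, and the 5 genes most alike in level. Alternatives were relative log expression scaling, scaling as deposited, 10 added before log2, no filter, a mean of at least 50, 0.5 added to each allele, centred ratios, a replicate block, fits of only the compared groups, each plant left out in turn, and 3 libraries left out that stood apart in earlier results (ColxMN47 standard 1 and dehydration 2, Colxhalleri cold 1). Whether replicates shared a week is not stated, so p values measure the spread between plants.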

Additional observations from a re-analysis of the deposited data

Results flagged for a closer look

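3 results were flagged for a difference between the hybrids, and the tests of the difference called only that of AAO3. The allele ratio of AAO3 differed by 0.97 on the log2 scale between Colxhalleri and ColxMN47, which the test of the difference itself called (limma, adjusted p = 0.000500). For ABA2 every stressed plant lay below the standard plants in ColxMN47 and above them in Colxhalleri. The hybrids' changes in level differed by 2.22 on the log2 scale for cold and by 2.11 for dehydration, and the interaction tests called neither (adjusted p of 0.411 and 0.323). Both ABA2 values share the standard plants, and reads from the annotated overlaps of ABA2 and AAO3 with genes on the opposite strand cannot be told apart.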

How the results depend on the processing

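Over the 6 tested genes and all comparisons, 1347 values were recomputed under alternatives: 1258 kept their direction and side of the threshold, 39 lost a call, 8 gained one, 42 uncalled values changed sign and 0 called values did. The number of the 6 genes called for dehydration in ColxMN47 was 1 and became 0 without the 3 libraries that stood apart and 0 in a fit of only the compared groups, and it was between 0 and 4 with single plants left out. For dehydration in Colxhalleri it was 3, and between 1 and 3 with plants left out. For dehydration against cold it was 0 in ColxMN47, between 0 and 1 with plants left out, and 1 in Colxhalleri, between 0 and 1. Called allele ratios numbered 4 in ColxMN47, 1 at a mean of at least 50 and 2 in dehydrated plants alone, and 5 in Colxhalleri and 0 at a mean of at least 50, which fewer of the genes reach. The called ratio change of ABA2 after dehydration in Colxhalleri went from 1 to 0 with no filter, at a mean of at least 50, under the replicate block and without the 3 libraries, and was between 0 and 1 with plants left out. The called difference in ratio between the hybrids went from 1 to 0 at a mean of at least 50 and was between 1 and 2 with plants left out. Counts over all genes moved more: 54 for dehydration in ColxMN47 (0 to 327 with plants left out, 0 to 71 otherwise), 395 in Colxhalleri (101 to 961, 127 to 578), 118 for cold in ColxMN47 (14 to 80, 13 to 141) and 98 in Colxhalleri (23 to 457, 2 to 179). Scaling as deposited moved the median change of all genes from 0.09 to 0.23 for cold in ColxMN47 and from 0.07 to -0.06 for dehydration in Colxhalleri. Deviations from group means correlated between -0.28 and 0.17 for the 45 pairs of libraries with the same number, and 5 of 18 libraries correlated best with their own number, so the numbers were not taken to pair the plants. With the replicate block, the ABA2 ratio change in Colxhalleri had an adjusted p of 0.0531 and the AAO3 ratio in ColxMN47 one of 0.0506, and it changed no other call among the 6 genes. The cause of these shifts was not tested.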

Other observations

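Among the pathway genes outside the group, the receptor PYL9 was called lower in Colxhalleri than in ColxMN47 under standard conditions, by -2.76 ± 0.70 on the log2 scale (limma, adjusted p = 0.0492), at a level of 13.6 ± 15.1 against 70.7 ± 28.1 (mean ± SD, n = 3). It encodes an abscisic acid receptor, and it was the only one of the 45 tested pathway genes called in that comparison, where 1.79% of all genes, 232 of 12941, were called.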
